A study of Homo sapiens with 34 samples.

Results

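The genes described here encode 6 prostate cell-surface antigens, FOLH1, STEAP1, STEAP2, STEAP4, PSCA and SLC45A3. They were picked by symbol from the 26336 genes of the count table because their proteins serve as imaging or therapy targets in prostate cancer. The rule uses no measured value, but the antigens were chosen with earlier results of these data known. Polyadenylated RNA was sequenced from 34 libraries of 4 human prostate cell lines, which fall into 17 groups. RWPE is labelled as non-tumorigenic prostate epithelium, LNCaP as derived from a lymph node metastasis, and VCaP and MDAPCa2a as derived from bone metastases, so that every group stands for 1 line and no group for a set of patients. Cells grew on plastic or on plates coated with amorphous calcium phosphate (ACP), which the study uses as a model of the mineral surface of bone. The medium was the control medium of the line, a medium whose serum had been stripped of steroids with charcoal and dextran, or that stripped serum with added androgen. LNCaP and VCaP had 5 groups each: plastic control, plastic stripped, ACP control, ACP stripped and ACP androgen. MDAPCa2a had no ACP control group, and RWPE had plastic control, ACP control and ACP androgen only. Each group held 2 libraries, except RWPE ACP androgen with 3 and VCaP plastic stripped with 1. The androgen is named testosterone in the condition label and DHT in the sample titles, at a labelled dose of 100 mM, and no group combined androgen with plastic. Cells were taken on day 4, except those of the plastic control groups, whose time label is continuous culture. RWPE control medium was a keratinocyte medium without serum, and MDAPCa2a cells needed a protein coating on plastic that was left out on ACP, so line and surface comparisons carry those differences too. The labels number the replicates but do not say whether they came from separate cultures, and p-values therefore measure the spread between these libraries.

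FOLH1, better known as prostate-specific membrane antigen (PSMA), is a membrane carboxypeptidase that removes glutamate from folates and from a neuronal dipeptide, and it is the target of PSMA imaging and radioligand therapy. The STEAP proteins are membrane proteins of which STEAP2 and STEAP4 reduce iron and copper ions with NADPH, whereas STEAP1 lacks the NADPH-binding domain of its relatives and is an antigen for antibody drugs. PSCA is a small protein of the Ly6 family held on the membrane by a lipid anchor, and SLC45A3, or prostein, is a sugar transporter relative of luminal prostate cells whose promoter region is a known fusion partner of ETS genes. In prostate cells androgen is known to repress FOLH1 and to induce SLC45A3, while STEAP4 is a known androgen-induced gene.

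Promoters are shown for the 4 of the 6 genes with an entry in the RefSeq promoter table used here, and these genes differ in their response to androgen. SLC45A3 and STEAP4 were the antigens called higher with androgen in LNCaP. The neighbours STEAP1 and STEAP2 passed no androgen test in the cancer lines. Each sequence is the 250 bases before the annotated start in the RefSeq promoter table (GRCh38.p14), read 5′ to 3′ on the strand of the gene. STEAP2 has 2 starts there, and only the window of the upstream start is shown and described. Capitals mark matches to the GC box, GGGCGG or its reverse complement CCGCCC. The windows lie at chr1:205680510-205680759 on the minus strand for SLC45A3, chr7:88306895-88307144 on the minus strand for STEAP4, chr7:90154219-90154468 on the plus strand for STEAP1, and chr7:90211490-90211739 on the plus strand for STEAP2.
SLC45A3: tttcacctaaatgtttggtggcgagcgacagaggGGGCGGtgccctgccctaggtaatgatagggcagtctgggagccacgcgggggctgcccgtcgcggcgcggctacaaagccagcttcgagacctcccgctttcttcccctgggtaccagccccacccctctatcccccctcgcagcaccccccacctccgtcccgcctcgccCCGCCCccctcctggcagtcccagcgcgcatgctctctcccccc
STEAP4: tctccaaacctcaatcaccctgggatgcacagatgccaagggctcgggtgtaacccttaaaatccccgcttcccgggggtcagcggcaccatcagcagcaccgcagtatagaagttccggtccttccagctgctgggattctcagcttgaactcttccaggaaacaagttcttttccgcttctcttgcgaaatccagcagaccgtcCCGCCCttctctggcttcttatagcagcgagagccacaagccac
STEAP1: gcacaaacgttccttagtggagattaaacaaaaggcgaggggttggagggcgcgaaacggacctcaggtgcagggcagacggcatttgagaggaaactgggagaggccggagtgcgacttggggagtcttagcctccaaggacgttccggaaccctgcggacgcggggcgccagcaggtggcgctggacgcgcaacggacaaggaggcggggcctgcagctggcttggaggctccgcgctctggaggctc
STEAP2: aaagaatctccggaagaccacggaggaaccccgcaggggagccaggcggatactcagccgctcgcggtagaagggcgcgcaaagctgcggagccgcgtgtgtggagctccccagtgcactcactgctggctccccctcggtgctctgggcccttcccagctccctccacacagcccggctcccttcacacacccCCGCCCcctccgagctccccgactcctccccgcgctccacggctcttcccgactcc

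The GC box occurred at 2 places in the SLC45A3 window, 216 and 44 bases before the start, and at 1 place each in the STEAP4 and STEAP2 windows, 44 and 56 bases before the start. It was absent from the STEAP1 window, and 42.6% of the 35116 windows of the same length in the table hold it. Searches on both strands for the steroid receptor motif AGAACA, held by 12.4% of windows, for its palindrome, in which that motif and its reverse complement stand 3 bases apart and which 0.00285% of windows hold, for the TATA box TATAAA, held by 10.7%, and for the CCAAT box, held by 32%, gave no match in the 4 windows. These are matches of letters within 250 bases and bear on no site outside them. GC content was 69.2% for SLC45A3, 69.6% for STEAP2, 64.4% for STEAP1 and 55.6% for STEAP4. FOLH1 and PSCA had 0 entries in the promoter table used here and are named without a promoter.

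Libraries held 15.4 to 44.8 M counts, and the 8 plastic control libraries held 34.9 to 44.8 M. All 6 antigens passed the filter on low counts in every fit. KRT8, a luminal keratin, had group means of 332 to 1314 CPM (read counts scaled to library size, with the trimmed mean of M-values) over all groups, whereas the basal keratin KRT5 reached 4013 to 9123 CPM in RWPE and 3.37 to 9.03 CPM in the 3 cancer lines. The plastic control libraries of every line also carried low levels of genes that the other libraries nearly lacked. FOLR1, a folate receptor, had means of 1.16 to 1.51 CPM in the 4 plastic control groups and 0 to 0.197 CPM in the 13 others, and TF, the iron carrier transferrin, followed the same split. Whatever sets these libraries apart cannot be told apart from the control medium on plastic, and every comparison against plastic control shares this limit. In bulk RNA a lower level in fewer cells and a lower level per cell cannot be told apart.

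To compare the antigens with each other, CPM was divided by the exon length of each gene. In control medium on plastic, FOLH1 was the most abundant antigen per kilobase in all 3 cancer lines, with 707 CPM per kb in LNCaP, 332 in VCaP and 833 in MDAPCa2a. STEAP1 came next in LNCaP at 261 CPM per kb and in VCaP at 209, where SLC45A3 stood at 203. In MDAPCa2a the second place went to SLC45A3 at 287 CPM per kb, followed by PSCA at 162 and STEAP1 at 128. STEAP2 had 130 CPM per kb in LNCaP, 79.8 in VCaP and 32.7 in MDAPCa2a, below STEAP1 in each line. This order rests on the exon lengths used, 7174 bases for STEAP2 and 1313 for STEAP1, and the annotation used in counting is not given. In CPM alone STEAP2 was above STEAP1, at 933 against 343 in LNCaP, 572 against 275 in VCaP and 234 against 169 in MDAPCa2a. STEAP4 was the least abundant of the 6 in every line on this scale, with 0.035 CPM per kb in LNCaP and 0.99 in VCaP. The VCaP value is the mean of unlike libraries, at 0.64 and 21.5 CPM. In CPM alone STEAP4 there averaged 11.1 and PSCA 2.87, so its last place in VCaP rests on its exon length of 11245 bases. RWPE had 3.77 CPM per kb of STEAP1, 3.05 of FOLH1, 2.87 of SLC45A3, 3.90 of PSCA, 0.64 of STEAP2 and 0.044 of STEAP4. With androgen on ACP the order in VCaP differed from that on plastic: SLC45A3 had 373 CPM per kb, STEAP1 349, STEAP2 101, FOLH1 75.8, STEAP4 55.9 and PSCA 29.2.

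**Figure D1:**
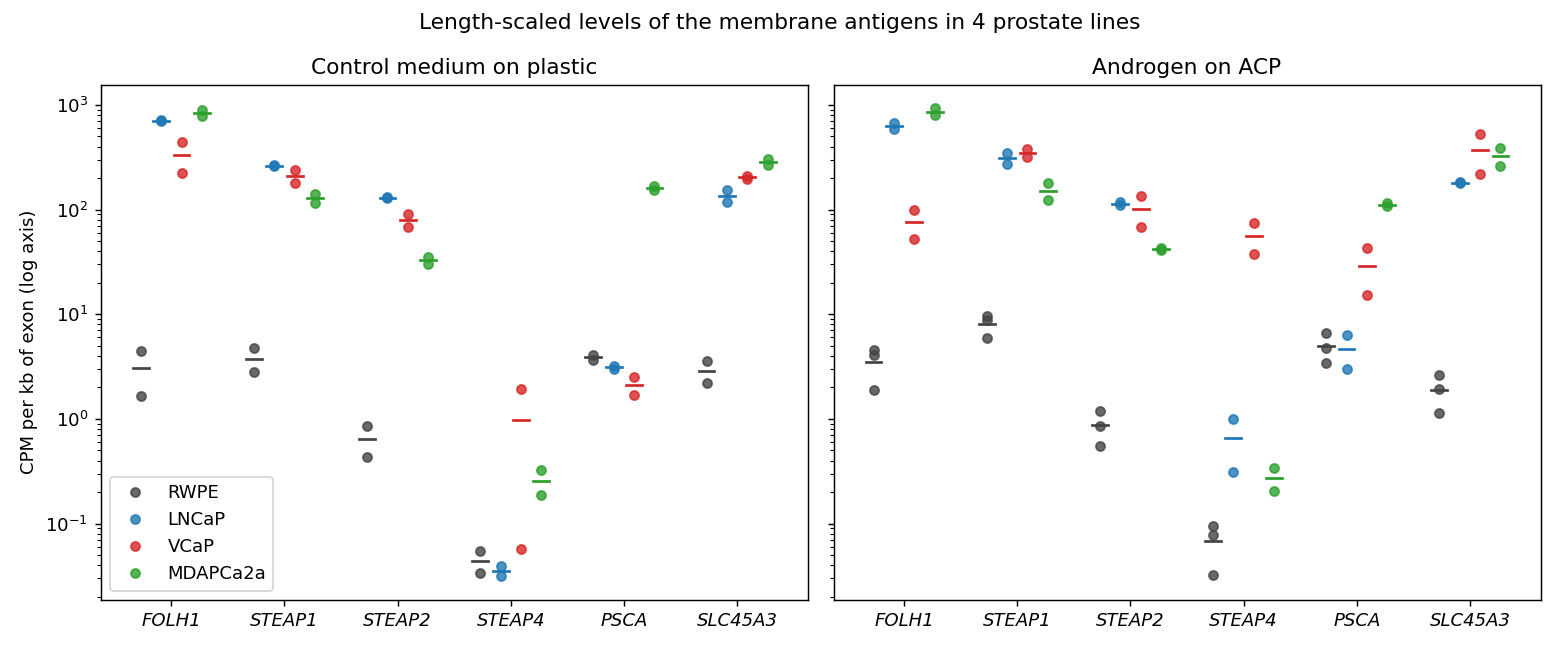
Levels of the 6 antigens in CPM per kilobase of exon on a log axis, for control medium on plastic (left) and androgen on ACP (right). Points are libraries, horizontal bars are group means and colours are lines. FOLH1 leads in the cancer lines on plastic, and in VCaP it lies at 332 CPM per kb on plastic and 75.8 with androgen on ACP.

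FOLH1 transcripts were abundant in every group of the 3 cancer lines and scarce in RWPE. Its highest group mean was 2710 ± 202 CPM (SD, n = 2) in LNCaP on ACP with stripped serum, followed by the MDAPCa2a groups on ACP with stripped serum (2552 ± 115), on ACP with androgen (2356 ± 253) and on plastic in control medium (2276 ± 204), and those 4 groups overlapped in their neighbouring ranks. LNCaP groups otherwise lay between 1655 and 1971 CPM. VCaP was more variable, and it was lower in control medium and with androgen. Its libraries had 615 and 1200 CPM in plastic control, 1447 and 875 in ACP control, and 142 and 272 in ACP androgen. In stripped serum VCaP had 1650 CPM on plastic and 1844 and 1547 on ACP, overlapping LNCaP ACP control and MDAPCa2a plastic stripped. The VCaP androgen group was the lowest of the cancer groups, and its libraries overlapped with no other group. RWPE libraries ran from 4.48 to 12.3 CPM, and of the 16 pairs of neighbouring groups in the FOLH1 order 11 overlapped.

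Group means of STEAP1 and STEAP2 were lower in RWPE and MDAPCa2a than in LNCaP and VCaP, while the ranges of LNCaP and VCaP overlapped. STEAP1 had group means of 331 to 475 CPM in LNCaP, 275 to 458 in VCaP and 167 to 241 in MDAPCa2a, against 4.87 to 10.7 in RWPE. STEAP2 had 714 to 933 CPM in LNCaP, 572 to 1066 in VCaP, 234 to 331 in MDAPCa2a and 4.61 to 6.24 in RWPE. For both genes 12 of the 16 neighbouring pairs in the order of levels overlapped, and in both orders the MDAPCa2a groups stood together below those of LNCaP and VCaP. The STEAP2 maximum of 1066 CPM rests on the single VCaP library on plastic with stripped serum.

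STEAP4 was near its detection floor in RWPE and most LNCaP groups. RWPE libraries held 8 to 23 reads of STEAP4, and LNCaP libraries held 21 and 16 reads in plastic control, 2 and 1 in plastic stripped, 22 and 13 in ACP control and 3 and 12 in ACP stripped. LNCaP with androgen on ACP had 328 and 108 reads, and the VCaP androgen libraries had 19203 and 9736. The VCaP plastic control libraries disagreed most of all, at 22 and 894 reads or 0.64 and 21.5 CPM. MDAPCa2a libraries stayed between 2.12 and 5.44 CPM in all 4 groups.

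PSCA marked 1 line. MDAPCa2a group means were 282 ± 63.2 CPM on plastic with stripped serum, 219 ± 15.1 in plastic control, 161 ± 25.8 in ACP stripped and 151 ± 7.27 in ACP androgen. VCaP with androgen had 58.6 and 20.6 CPM, RWPE in ACP control had 17.1 and 17.2, and all other groups had means below 8 CPM. SLC45A3 also peaked in MDAPCa2a, with group means from 960 to 1374 CPM, but VCaP with androgen lay in the same range with libraries at 1760 and 729 CPM. As a ratio of highest to lowest library, SLC45A3 varied most in LNCaP, 16.6-fold from 36.7 to 608 CPM, against 7.52-fold in VCaP, and RWPE stayed between 3.82 and 11.9 CPM.

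**Figure D2:**
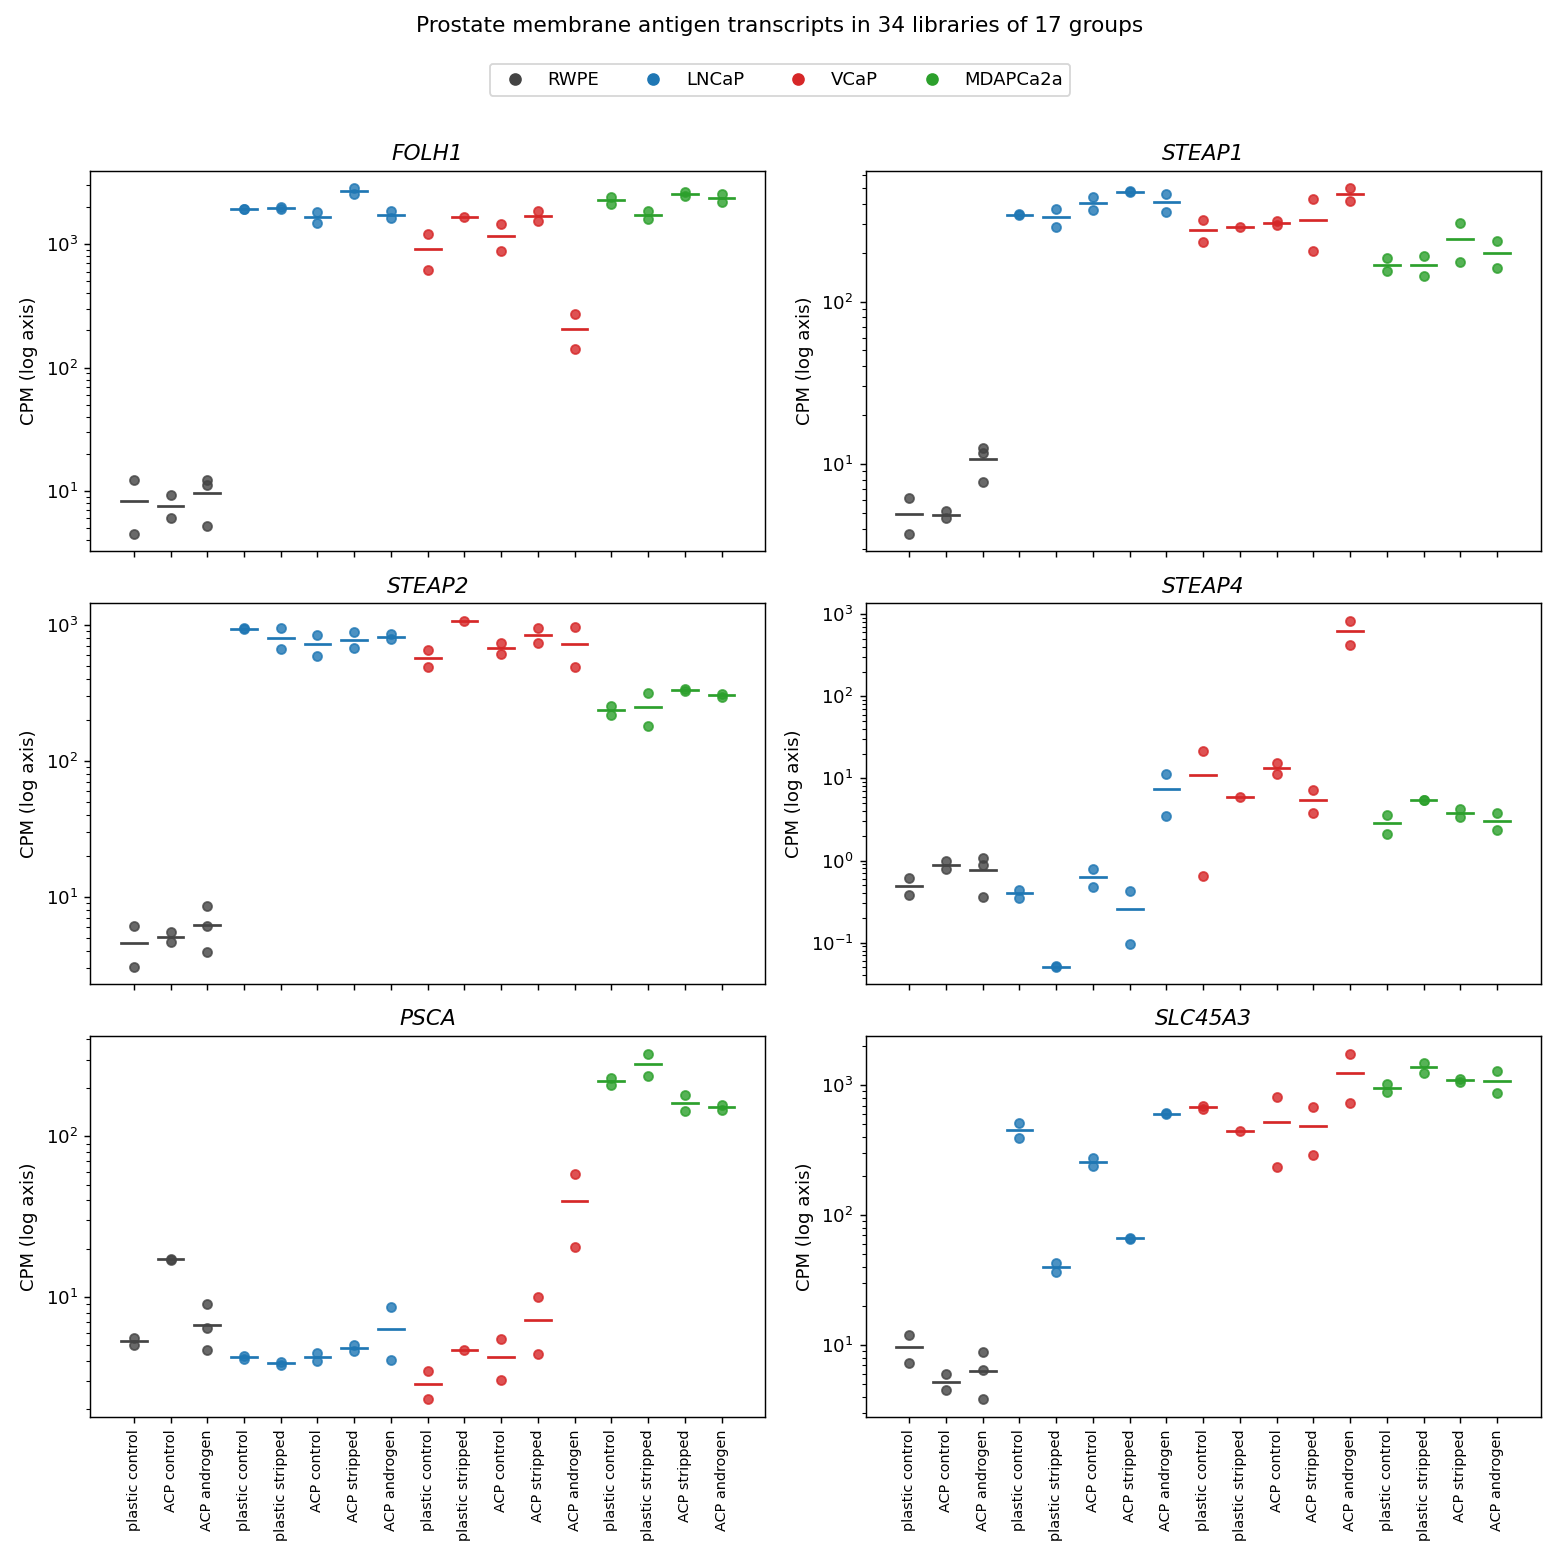
Level of each antigen in CPM on a log axis in all 34 libraries, by group and coloured by line. Points are libraries and bars are group means. FOLH1 lies between 142 and 2852 CPM in the cancer lines with its lowest cancer group in VCaP with androgen, STEAP4 has its highest group there, and PSCA is highest in the 4 MDAPCa2a groups.

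In control medium on plastic, the lines were compared in 1 fit of all libraries. LNCaP exceeded RWPE in 4 of the 6 antigens, while 29.5% of the 17323 genes tested were higher and 57.4% were called in either direction. FOLH1 was 7.86 log2 units higher (SE 0.51, adjusted p = 3.77e-12), STEAP2 7.66 (SE 0.44), STEAP1 6.11 (SE 0.38) and SLC45A3 5.56 (SE 0.53), whereas STEAP4 (-0.30, SE 1.10) and PSCA (-0.33, SE 0.40) did not pass. VCaP exceeded RWPE in 5 antigens, with 32.1% of genes higher and 62.4% called. The VCaP call for STEAP4, at 4.49 log2 units, rested on plastic control replicate 2: without that library the value was 0.38 (adjusted p = 0.705). MDAPCa2a exceeded RWPE in all 6 antigens, with 28.3% of genes higher and 56.7% called, and PSCA was among them at 5.37 log2 units (SE 0.45, adjusted p = 3.0e-10). The MDAPCa2a call for STEAP4, at 2.53 (adjusted p = 0.0218), was lost without either RWPE library or MDAPCa2a replicate 1, with values of 2.10 to 2.87 and adjusted p of 0.0634 to 0.123.

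Low RWPE levels came with other low signals between lines. As a share of the highest group mean, RWPE reached at most 0.352% for FOLH1, 0.585% for STEAP2, 0.699% for SLC45A3, 0.14% for STEAP4, 2.25% for STEAP1 and 6.06% for PSCA. KLK3, the gene of prostate-specific antigen, reached 0.143% on the same measure. KRT5, high in RWPE, had group means of 3.37 to 9.03 CPM in the cancer lines, with no read in LNCaP ACP control replicate 1, LNCaP ACP androgen replicate 1 and MDAPCa2a ACP stripped replicate 1. Transfer of reads between libraries was not tested.

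Between the cancer lines on plastic, 2 antigens separated VCaP from LNCaP, where 52.6% of genes were called. FOLH1 was -1.09 log2 units (SE 0.38, adjusted p = 0.0193) in VCaP, a call lost without either LNCaP library or VCaP replicate 1 (-0.69 to -1.10, adjusted p 0.0582 to 0.224). STEAP4 was 4.79 higher in VCaP, but 0.68 (adjusted p = 0.514) without VCaP plastic control replicate 2. MDAPCa2a differed from LNCaP in 5 antigens, with 40.2% of genes called: STEAP2 was lower by -1.99 (SE 0.34, adjusted p = 3.72e-05) and STEAP1 by -1.02 (SE 0.30, adjusted p = 0.00878), while PSCA was higher by 5.70 (SE 0.46, adjusted p = 3.39e-10). The STEAP1 call was lost without MDAPCa2a replicate 2 (-0.90, adjusted p = 0.0865). STEAP4 (2.83, adjusted p = 0.0162) was lost without either LNCaP library or MDAPCa2a replicate 1 (2.40 to 3.01, adjusted p 0.074 to 0.102), and SLC45A3 (1.08, adjusted p = 0.0497) without any of the 4 libraries (0.91 to 1.28, adjusted p 0.0944 to 0.237). MDAPCa2a against VCaP gave 4 calls where 52.4% of genes were called. PSCA was higher by 6.25 log2 units (SE 0.48), FOLH1 higher by 1.33 (SE 0.38, adjusted p = 0.00549) and STEAP2 lower by -1.29 (SE 0.33, adjusted p = 0.00216). Without VCaP replicate 1 the FOLH1 value was 0.92 (adjusted p = 0.103). The STEAP4 difference of -1.96 (adjusted p = 0.0299) turned to 2.15 (adjusted p = 0.0137) without VCaP replicate 2, so no direction can be read from it. It was also lost without either MDAPCa2a library, at -2.39 and -1.62 (adjusted p 0.0614 and 0.18).

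With androgen on ACP, a condition that all 4 lines share on day 4, the antigens ranked the lines differently. LNCaP exceeded RWPE in 5 antigens, VCaP in 6 and MDAPCa2a in 5, where 32.2%, 32.8% and 29.9% of genes were higher and 66.9%, 67.4% and 64% were called. PSCA did not differ detectably between LNCaP and RWPE (-0.07, SE 0.38), and STEAP4 of MDAPCa2a missed the threshold (2.03, adjusted p = 0.0516). FOLH1 was -3.06 log2 units in VCaP against LNCaP (SE 0.41, adjusted p = 8.33e-07), and 3.51 higher in MDAPCa2a than in VCaP (SE 0.42, adjusted p = 1.88e-07). STEAP4 was 6.41 log2 units higher in VCaP than in LNCaP (SE 0.85, adjusted p = 7.76e-07) and -7.69 in MDAPCa2a against VCaP (SE 0.92). PSCA was highest in MDAPCa2a, 1.93 above VCaP (SE 0.39, adjusted p = 1.94e-04), which was in turn 2.64 above LNCaP (SE 0.41, adjusted p = 6.75e-06). In all, 4 members differed between VCaP and LNCaP (56% of genes called), 3 between MDAPCa2a and LNCaP (45.3%) and 5 between MDAPCa2a and VCaP (51.4%). STEAP1 and STEAP2 were lower in MDAPCa2a than in LNCaP, by -1.04 (adjusted p = 0.0072) and -1.43 (adjusted p = 0.00107), and lower than in VCaP, by -1.20 (adjusted p = 0.00196) and -1.26 (adjusted p = 0.00268). The STEAP1 call against LNCaP was lost without LNCaP replicate 2 (-0.84, adjusted p = 0.0709) or MDAPCa2a replicate 2 (-0.79, adjusted p = 0.11), and the STEAP2 call against VCaP without VCaP replicate 1 (-0.70, adjusted p = 0.123). SLC45A3 was 1.05 higher in VCaP than in LNCaP (adjusted p = 0.0437), which fell to 0.28 (adjusted p = 0.669) without VCaP replicate 1 and was also lost without either LNCaP library (1.06 and 1.03, adjusted p 0.126 and 0.134) or without the plastic control libraries (1.07, adjusted p = 0.0517).

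The main androgen comparison set ACP with stripped serum and androgen against ACP with stripped serum. The 2 known androgen-induced genes TMPRSS2 and KLK3 rose in LNCaP, by 2.27 (SE 0.24) and 1.01 (SE 0.17) log2 units, and in VCaP, by 2.91 (SE 0.37) and 4.77 (SE 0.74). In MDAPCa2a neither passed, at -0.35 (SE 0.24) and -0.46 (SE 0.26). In VCaP and LNCaP 3 of the 6 antigens passed in each line, against 17.5% and 7.73% of all genes tested, and in MDAPCa2a none passed.

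FOLH1 fell with androgen in VCaP and LNCaP. In VCaP the 2 stripped libraries had 1844 and 1547 CPM and the 2 androgen libraries had 142 and 272 CPM, so that the groups lay far apart. The fall was 8.17-fold, or -3.03 on the log2 scale (SE 0.42, adjusted p = 0.00275), and it passed the threshold without any single library, with values of -3.58 to -2.61. LNCaP had 2567 and 2852 CPM with stripped serum and 1618 and 1843 CPM with androgen, a fall of 1.58-fold (-0.66, SE 0.14, adjusted p = 0.0197). The LNCaP groups did not overlap, but the call was lost without either stripped library (-0.74 and -0.57, adjusted p 0.0716 and 0.145) or androgen replicate 1 (-0.59, adjusted p = 0.121), and when all lines were fitted together (-0.65, adjusted p = 0.407). MDAPCa2a had 2471 and 2634 CPM without and 2178 and 2535 CPM with androgen, a difference of -0.16 with a 95% interval of -0.58 to 0.27. Differences of the androgen effect between lines were called for 2 of 6 antigens between VCaP and LNCaP (10.9% of genes), 3 between VCaP and MDAPCa2a (7.86%) and 1 between MDAPCa2a and LNCaP (1.12%). The FOLH1 effect was stronger in VCaP than in LNCaP, with a difference of -2.39 (SE 0.54, adjusted p = 0.00585), and stronger in VCaP than in MDAPCa2a, with a difference of -2.92 (SE 0.55, adjusted p = 0.00178). Between MDAPCa2a and LNCaP the difference of 0.53 (SE 0.53, adjusted p = 0.822) did not pass.

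STEAP4 rose in both lines in which FOLH1 fell. VCaP libraries had 3.80 and 7.17 CPM with stripped serum and 831 and 426 CPM with androgen, a rise of 6.83 log2 units or 114-fold (SE 1.19, adjusted p = 0.00611). Both VCaP androgen libraries lay above every other library of the study. Without VCaP stripped replicate 1 the rise was 6.50 with an adjusted p of 0.0632. LNCaP libraries had 0.097 and 0.42 CPM without and 11.3 and 3.53 CPM with androgen, a rise of 4.84 log2 units or 28.6-fold (SE 0.69, adjusted p = 0.0023) from only 3 and 12 reads. That LNCaP call held without each library in turn, with values from 3.74 to 6.21. MDAPCa2a had 4.20 and 3.37 CPM without and 3.78 and 2.32 CPM with androgen, a difference of -0.35 with a 95% interval of -1.18 to 0.47. The effect exceeded that of MDAPCa2a by 7.15 in VCaP (SE 1.15, adjusted p = 4.54e-04), while the difference between MDAPCa2a and LNCaP of -5.16 (adjusted p = 0.0636) and that between VCaP and LNCaP of 1.98 (adjusted p = 0.455) did not pass.

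SLC45A3 was the antigen with the clearest rise in LNCaP. Its libraries had 67.2 and 66.2 CPM in stripped serum and 608 and 597 CPM with androgen, a rise of 3.16 log2 units or 8.95-fold (SE 0.18, adjusted p = 7.28e-06). The replicates of both groups agreed closely, and values without each library ran from 3.13 to 3.19. In VCaP the stripped libraries had 294 and 680 CPM and the androgen libraries 1760 and 729 CPM. The groups did not overlap, but the difference of 1.35 (SE 0.58, adjusted p = 0.131) did not pass the threshold. MDAPCa2a had 1057 and 1129 CPM without and 872 and 1292 CPM with androgen (-0.06, 95% interval -0.55 to 0.44). The effect in MDAPCa2a was lower than in LNCaP by -3.19 (SE 0.62, adjusted p = 0.00776). That difference was lost without either LNCaP stripped library (-3.20 and -3.18, adjusted p 0.0586 and 0.052) or MDAPCa2a androgen replicate 1 (-2.93, adjusted p = 0.0717). For VCaP against LNCaP it was -1.82 (adjusted p = 0.0571).

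PSCA rose with androgen in VCaP. Its libraries there had 10.0 and 4.43 CPM without and 58.6 and 20.6 CPM with androgen, a rise of 5.48-fold (2.45, SE 0.55, adjusted p = 0.0162). The groups did not overlap, and the call was lost without stripped replicate 2 (1.98, adjusted p = 0.0753) or androgen replicate 1 (1.54, adjusted p = 0.0997). LNCaP had 5.01 and 4.62 CPM without and 8.67 and 4.05 CPM with androgen (0.39, 95% interval -0.31 to 1.09), and MDAPCa2a 180 and 143 CPM without and 146 and 157 CPM with (-0.14, -0.59 to 0.31). The effect differed between VCaP and LNCaP by 2.06 (SE 0.57, adjusted p = 0.0204) and between VCaP and MDAPCa2a by 2.55 (SE 0.55, adjusted p = 0.00536). The first difference was lost without VCaP stripped replicate 2, VCaP androgen replicate 1, LNCaP stripped replicate 1 or LNCaP androgen replicate 2, with values of 1.12 to 2.00 and adjusted p of 0.0673 to 0.188. The second was lost without VCaP androgen replicate 1 (1.61, adjusted p = 0.0534).

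STEAP1 and STEAP2 passed the androgen test in none of the 3 cancer lines. For STEAP1 the log2 differences were -0.23 in LNCaP (95% interval -0.64 to 0.17), 0.53 in VCaP (-0.16 to 1.22) and -0.33 in MDAPCa2a (-1.03 to 0.37). For STEAP2 they were 0.06 in LNCaP (-0.43 to 0.56), -0.21 in VCaP (-0.90 to 0.48) and -0.17 in MDAPCa2a (-0.75 to 0.40). The intervals leave room for changes of more than 2-fold only in the VCaP rise and the MDAPCa2a fall of STEAP1. In MDAPCa2a 0 of 13626 genes were called by edgeR's quasi-likelihood test, 236 reached p below 0.05 before adjustment, 3 were called by DESeq2, and 0 antigens passed by any of these measures.

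**Figure D3:**
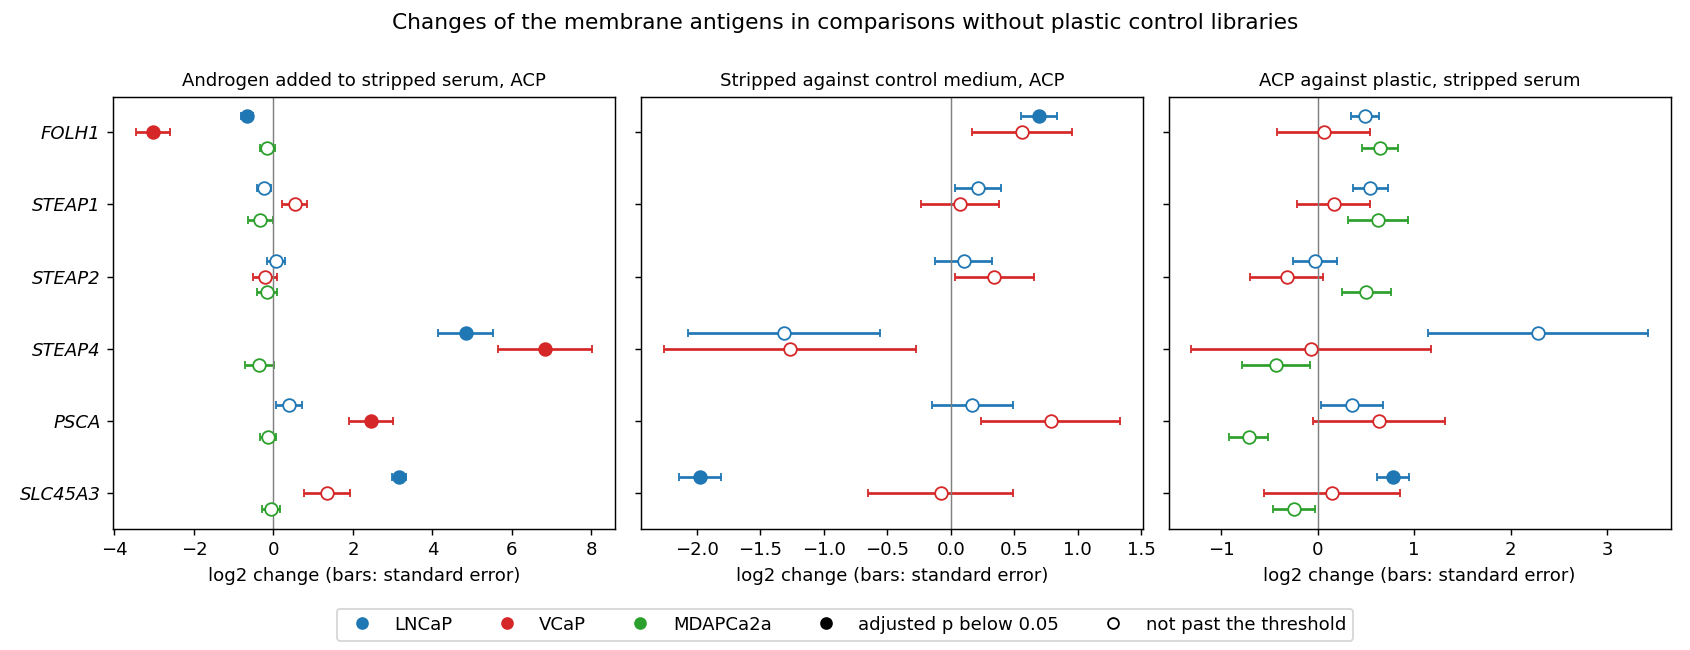
Log2 change of each antigen (horizontal axis, bars are standard errors) for androgen added to stripped serum on ACP, for stripped against control medium on ACP, and for ACP against plastic in stripped serum. Filled points have an adjusted p below 0.05 and colours are lines. FOLH1 lies at -3.03 and STEAP4 at 6.83 in VCaP on the left, and no MDAPCa2a point is filled.

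The androgen libraries of VCaP differed from the stripped ones in other marker genes as well. The summed leukocyte markers were 8.15 to 14.3 CPM with stripped serum and 82.6 to 156 CPM with androgen, almost all of it LYZ (9.37 and 118 CPM), while PTPRC, a pan-leukocyte gene, stayed at 0 or 1 read in each library. The summed fibroblast markers went from 40.7 to 161 down to 7.66 to 8.63 CPM through LUM (94.6 and 2.69 CPM), with COL1A2 at 0 to 3 reads. Summed liver markers were 320 to 379 CPM without and 35.9 to 102 CPM with androgen through ALB (295 and 40.0 CPM), with FGG at 0. Summed endothelial markers were 0.683 to 1.52 and 12.2 CPM, mainly PECAM1, with CDH5 at 0. In both groups 2 of 6 leukocyte, 1 of 6 liver and 1 of 4 endothelial genes had no read. The part of these genes in the antigen results was not tested.

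Androgen on ACP was also set against ACP in control medium. This comparison shares its androgen libraries with the one above. In LNCaP, where 15.1% of genes were called, STEAP4 rose by 3.52 log2 units (SE 0.62, adjusted p = 0.00518) and SLC45A3 by 1.19 (SE 0.16, adjusted p = 0.00184), from 276 and 241 CPM to 608 and 597 CPM. The SLC45A3 call was lost when all lines were fitted together (1.22, adjusted p = 0.0815). FOLH1 did not differ detectably there (0.03, 95% interval -0.28 to 0.35). In VCaP, with 5.99% of genes called, FOLH1 fell by 2.47 (SE 0.41, adjusted p = 0.0121), STEAP4 rose by 5.56 (SE 1.12, adjusted p = 0.0221) and PSCA rose by 3.24 (SE 0.57, adjusted p = 0.0147). The 3 VCaP calls were lost without control replicate 1 or androgen replicate 1, those of STEAP4 and PSCA also without control replicate 2: FOLH1 was then -2.04 and -2.07 (adjusted p 0.0817 and 0.083), STEAP4 5.01 to 5.79 (0.0908 to 0.176) and PSCA 2.30 to 3.74 (0.0729 to 0.147). In RWPE, whose control medium holds no serum, 19.1% of genes were called. STEAP1 rose from 5.11 and 4.63 CPM to 11.6, 12.6 and 7.81 CPM (1.15, SE 0.30, adjusted p = 0.0271), and PSCA fell from 17.1 and 17.2 CPM to 6.45, 9.045 and 4.65 CPM (-1.33, SE 0.26, adjusted p = 0.017). The STEAP1 call was lost without any of 4 of the 5 libraries, the exception being androgen replicate 3 (1.01 to 1.16, adjusted p 0.055 to 0.275), and the PSCA call without either control library (-1.41 and -1.31, adjusted p 0.275 and 0.0915). The basal keratin KRT5 also fell between these RWPE groups, from 9123 to 4013 CPM (-1.16, SE 0.36, adjusted p = 0.0463). The 5 summed basal markers were 13396 to 16703 CPM in the control and 3510 to 11510 CPM in the androgen libraries, and their part in the PSCA and STEAP1 results was not tested.

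In LNCaP SLC45A3 was lower in stripped serum than in control medium on both surfaces, the plastic control libraries being labelled continuous culture. On plastic it fell from 510 and 396 CPM to 36.7 and 42.6 CPM, a change of -3.46 log2 units (SE 0.18, adjusted p = 2.81e-06), as 1 of 6 antigens called where 9.45% of genes were. On ACP it fell from 276 and 241 CPM to 67.2 and 66.2 CPM, a change of -1.98 or 3.93-fold (SE 0.17, adjusted p = 1.35e-04), with 5.37% of genes called. Both calls held without each library in turn. The fall was smaller on ACP than on plastic: the surface-by-serum interaction was 1.48 (SE 0.23, adjusted p = 0.0233), and SLC45A3 was 1 of 45 genes, or 0.307%, with such a call. The interaction was lost without plastic control replicate 1, plastic stripped replicate 1 or either ACP stripped library (1.30 to 1.49, adjusted p 0.0995 to 0.155) and in the joint fit of all lines (1.56, adjusted p = 0.569), and it includes the plastic control libraries. KLK3 gave an interaction in the same direction of 3.70 (SE 0.25, adjusted p = 1.71e-04), with 129 CPM on plastic and 1668 CPM on ACP in stripped serum.

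FOLH1 behaved otherwise in LNCaP. On ACP it rose from 1488 and 1821 CPM in control medium to 2567 and 2852 CPM in stripped serum (0.70, SE 0.14, adjusted p = 0.0182), and on plastic it had 1942 and 1922 CPM in control medium and 1925 and 2017 CPM in stripped serum (0.08, 95% interval -0.23 to 0.39). The ACP call was lost without control replicate 1 or either stripped library (0.57 to 0.78, adjusted p 0.0671 to 0.136), and when all lines were fitted together (0.71, adjusted p = 0.376). The interaction for FOLH1, 0.61 (SE 0.20, adjusted p = 0.356), did not pass, so a difference between surfaces was not shown. STEAP4 had 21 and 16 reads in control medium and 2 and 1 reads in stripped serum on plastic, a difference of -2.84 (SE 1.03, adjusted p = 0.112). The rise of FOLH1 in stripped serum and its fall with androgen share the ACP stripped libraries.

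In VCaP and MDAPCa2a no antigen passed a serum comparison by edgeR's quasi-likelihood test. VCaP had 0 of 6 called on ACP (0.82% of genes), with 0 at an unadjusted p below 0.05 and 0 by DESeq2, and 0 of 6 on plastic (0.89%), with 1 and 0 by the same measures. The VCaP surface-by-serum interaction also called 0 of 6 (0.0256% of genes), with 0 by either other measure. SLC45A3 in VCaP had 234 and 813 CPM in control medium and 294 and 680 CPM in stripped serum on ACP (-0.08, 95% interval -1.35 to 1.20), and its replicates differed more than its groups. FOLH1 in VCaP was 1844 and 1547 CPM in stripped serum against 1447 and 875 CPM in control medium on ACP (0.56, SE 0.39, adjusted p = 0.5). In MDAPCa2a on plastic 0 of 6 passed (1.58% of genes), with 2 at an unadjusted p below 0.05 and 0 by DESeq2. SLC45A3 there had 895 and 1024 CPM in control medium and 1256 and 1492 CPM in stripped serum (0.55, SE 0.22, adjusted p = 0.256), and STEAP4 3.63 and 2.12 CPM against 5.44 and 5.41 CPM (0.95, SE 0.34, adjusted p = 0.22).

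ACP against plastic was tested in stripped serum, where both groups were taken on day 4. In LNCaP SLC45A3 rose from 36.7 and 42.6 CPM on plastic to 67.2 and 66.2 CPM on ACP (0.78, SE 0.17, adjusted p = 0.0226), 1 of 6 antigens where 6.12% of genes were called. The call was lost without plastic stripped replicate 1 or either ACP library (0.60 to 0.77, adjusted p 0.126 to 0.199), and in the joint fit of all lines (0.75, adjusted p = 0.394). FOLH1 had 1925 and 2017 CPM on plastic and 2567 and 2852 CPM on ACP (0.49, SE 0.14, adjusted p = 0.0629), and STEAP1 289 and 372 CPM against 472 and 478 CPM (0.55, SE 0.18, adjusted p = 0.0935), so both groups lay apart without passing. In VCaP, with 1 plastic library, 0 of 6 passed and 0 of all genes, with 511 genes at an unadjusted p below 0.05 and 4 by DESeq2. In MDAPCa2a 0 of 6 passed and 0.00734% of genes, with 2 antigens at an unadjusted p below 0.05 and 1 by DESeq2. FOLH1 there had 1589 and 1867 CPM on plastic and 2471 and 2634 CPM on ACP (0.65, SE 0.19, adjusted p = 0.235), and PSCA 327 and 238 CPM against 180 and 143 CPM (-0.71, SE 0.20, adjusted p = 0.23). The MDAPCa2a surfaces also differ in the protein coating. Between lines the surface effect differed for 0 of 6 antigens in each of 3 tests, where 0.127%, 0.358% and 0% of genes were called, with 0, 0 and 1 antigens at an unadjusted p below 0.05 and 0 by DESeq2 in each.

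In control medium the same surfaces were compared against plastic control libraries. In RWPE PSCA rose from 5.57 and 5.01 CPM on plastic to 17.1 and 17.2 CPM on ACP (1.72, SE 0.29, adjusted p = 0.0141), 1 of 6 antigens where 4.16% of genes were called. The replicates lay close together and the groups far apart, yet the call was lost without any 1 of the 4 libraries (1.65 to 1.80, adjusted p 0.0921 to 0.169). In LNCaP SLC45A3 fell from 510 and 396 CPM to 276 and 241 CPM (-0.70, SE 0.16, adjusted p = 0.022) where 12.6% of genes were called, a call lost without any 1 of the 4 libraries (-0.86 to -0.52, adjusted p 0.0584 to 0.23) and when all lines were fitted together (-0.81, adjusted p = 0.269). For VCaP 0 of 6 passed, with 0.0448% of genes called, 0 antigens at an unadjusted p below 0.05 and 0 by DESeq2. The labelled time also differs between these groups.

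FOLH1 has close relatives in the genome, and they were read beside it because reads from near-identical copies may be shared or lost in counting. FOLH1B, a copy of FOLH1, had 8.58 and 10.7 CPM in VCaP with stripped serum and 0.61 and 1.27 CPM with androgen, a change of -3.36 on the log2 scale (SE 0.40, adjusted p = 0.00142). It was below 0.1 CPM in RWPE and highest in MDAPCa2a, at 8.995 to 14.04 CPM, and how the counting divided reads between both copies is not given in the sources used here. NAALAD2, a related carboxypeptidase gene, had 274 and 461 CPM in VCaP with stripped serum and 4.50 and 8.23 CPM with androgen, a change of -5.85 (SE 0.62, adjusted p = 9.53e-04). In LNCaP NAALAD2 fell by 1.79 (SE 0.35, adjusted p = 0.0137), from 11.998 and 9.21 CPM to 1.87 and 4.31 CPM, and in MDAPCa2a it did not exceed 0.505 CPM. The line difference of the androgen effect was -2.55 for FOLH1B (SE 0.51, adjusted p = 0.00245) and -4.08 for NAALAD2 (SE 0.70, adjusted p = 7.89e-04) between VCaP and LNCaP.

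**Figure D4:**
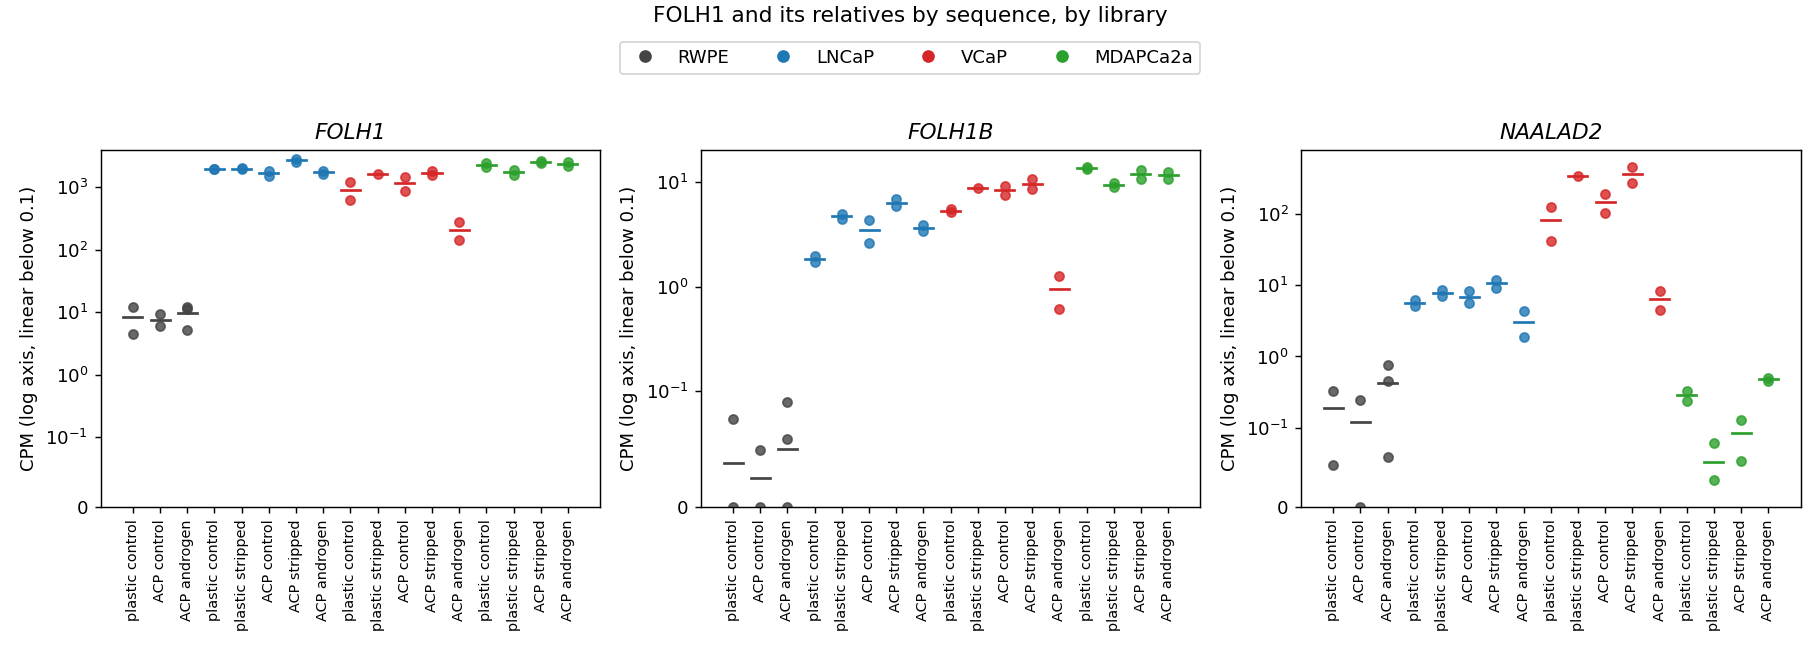
CPM of FOLH1, FOLH1B and NAALAD2 in every library, on an axis that is logarithmic above 0.1 and linear below. Points are libraries, bars are group means and colours are lines. All 3 genes have their lowest VCaP group with androgen on ACP, and NAALAD2 is below 1 CPM in RWPE and MDAPCa2a, where FOLH1 is high only in MDAPCa2a.

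Among the other relatives, STEAP1B had 4.38 to 9.33 CPM in RWPE and did not exceed 0.718 CPM in the cancer lines. It was higher in RWPE than in LNCaP on plastic, with a difference for LNCaP of -4.15 (SE 0.52, adjusted p = 2.54e-07), the opposite direction to STEAP1. STEAP3, the metalloreductase of the transferrin cycle, was also lower in LNCaP than in RWPE on plastic (-1.29, SE 0.23, adjusted p = 3.93e-05). In RWPE on ACP it was lower in androgen medium than in control medium (-1.05, SE 0.19, adjusted p = 0.017). That control medium holds no serum, so androgen and base medium changed together there. SLC45A2, a melanosomal relative of SLC45A3, rose with androgen in VCaP by 4.50 (SE 0.96, adjusted p = 0.0132). That rise began near the detection floor, from 1 to 8 reads in the ACP stripped libraries to 54 to 154 in the androgen libraries.

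Other surface antigens under study as targets in cancer were read from a list of 30, of which 29 were in the table. With androgen 3 rose and 5 fell among 25 tested in VCaP, where 17.5% of all genes were called (median 0.01, against -0.03 over all genes tested). In LNCaP 1 rose among 23, where 7.73% of all genes were called (median 0.23, against -0.01), a smaller share than over all genes. F3, or tissue factor, rose from 9.98 to 182 CPM in VCaP (4.18, SE 0.59, adjusted p = 0.00277), and the somatostatin receptor gene SSTR2 fell from 1.08 to 0.066 CPM (-3.95, SE 1.01, adjusted p = 0.0259). TRPM8, a cation channel gene, rose in LNCaP from 1.96 to 13.99 CPM (2.82, SE 0.33, adjusted p = 7.45e-04). In MDAPCa2a 0 of 21 passed, where 0 of all genes were called. With stripped serum on plastic TRPM8 of LNCaP fell by 3.56 (SE 0.39, adjusted p = 4.55e-04). This was the largest fall among the 3 that fell of 23, where 9.45% of all genes were called.

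Genes of iron and copper handling, the pathway of the STEAP reductases, gave 1 call with androgen in the 3 cancer lines. Of 20 genes, 0 rose and 1 fell among 18 tested in VCaP, the iron reductase CYBRD1 (-2.04, SE 0.58, adjusted p = 0.0377), where 17.5% of all genes were called. None of 19 passed in LNCaP, where 7.73% of all genes were called, or of 18 in MDAPCa2a, where 0 of all genes were. Folate genes, the pathway of FOLH1, had 3 rises and 0 falls among 19 in VCaP, a share close to the 17.5% of all genes called there. The largest rise was that of thymidylate synthase TYMS (1.61, SE 0.32, adjusted p = 0.0102). In LNCaP TYMS fell by 1.56 (SE 0.32, adjusted p = 0.0157), the 1 fall among 19 tested, where 7.73% of all genes were called. TYMS thus moved in opposite directions, and its androgen effect differed between VCaP and LNCaP by 3.15 (SE 0.53, adjusted p = 6.48e-04). With stripped serum on plastic 5 of 19 folate genes fell in LNCaP and none rose, where 9.45% of all genes were called, and FOLR1, the one that fell furthest, is among the genes that set the plastic control libraries apart.

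The genes whose levels were most like those of each antigen over the 17 groups were sought among 13218 genes, by Pearson correlation of log2 group means, and the values describe groups that share lines and libraries. STEAP1 and STEAP2 had a correlation of 0.988 with each other. FOLH1 was most like ZNF667-AS1 (0.988), FAAH (0.978) and TTTY15 (0.977), STEAP1 like RIMKLA (0.99) and STEAP2 like ZFY (0.989). STEAP4 was most like ACADL (0.949), PSCA like SCARA5 (0.972) and SLC45A3 like PTPRJ (0.974). With each line centred on its own mean, FOLH1 was most like NAALAD2 (0.967), WNT2 (0.96) and LUM (0.956), STEAP4 like PPM1B (0.949) and SLC45A3 like F5 (0.95). On that scale FOLH1 ran opposite to STEAP4 (-0.886) and PSCA (-0.758), STEAP4 and PSCA ran together (0.79), and STEAP1 and STEAP2 were only loosely related (0.31). The VCaP androgen group lies at the edge of the scale for FOLH1, STEAP4 and PSCA and weighs on these values.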

How the data were processed

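The deposited values are raw read counts per gene symbol, and the submitters' processing notes name STAR, HTSeq and hg19, with versions, annotation and strand setting not given in the sources used here. All 34 count columns were matched to samples by name. The 6 antigens and the gene lists were chosen with earlier results of these data known. Counts were scaled by the trimmed mean of M-values (TMM), filtered with filterByExpr (minimum count 10) and tested by quasi-likelihood in edgeR 4.0.16 (with R 4.3.3 and limma 3.58.1), with Benjamini-Hochberg adjustment over all genes tested and a threshold of 0.05. Treatments were tested within a line, and lines and differences between lines in 1 fit of 34 libraries. The SE is the absolute log2 change divided by the root of F. Levels are CPM with TMM library sizes over all lines, per kilobase of GENCODE exon union where genes are compared. Planned for naming were the 6 antigens, KLK3, TMPRSS2, KRT5, KRT8 and 7 relatives. So were the top call in each direction of a list and the 3 genes most like each antigen. Not all of these are named here. The top rise of 1 list is not reported here. A few further genes (FOLR1, TF, marker genes) were named after their values were seen. The models were tested on simulated data. Alternatives were other size factors, no filter, DESeq2 1.42.0, a replicate block, 1 fit of all lines, and each library left out. The largest library held 44.8 M counts and the smallest 15.4 M.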

Additional observations from a re-analysis of the deposited data

Results flagged for a closer look

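Of the antigens, 4 had an effect that differed between lines or surfaces by a test of the difference itself, and the report gives the libraries on which each rests. For FOLH1 the androgen effect in VCaP was below that in LNCaP by -2.39 and below that in MDAPCa2a by -2.92 on the log2 scale. For STEAP4 the androgen effect in VCaP exceeded that in MDAPCa2a by 7.15. For PSCA it exceeded that in LNCaP by 2.06 and that in MDAPCa2a by 2.55. For SLC45A3 the androgen effect in MDAPCa2a was below that in LNCaP by -3.19, and the effect of stripped serum in LNCaP differed between ACP and plastic by 1.48.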

How the results depend on the processing

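Of 222 antigen results, 80 were called and 51 of these calls were kept under every alternative; of 2184 alternative values, 2060 kept direction and side of the threshold, 83 lost a call, 40 gained one and 1 reversed. The reversal was STEAP4 in MDAPCa2a against VCaP on plastic, 2.15 without VCaP plastic control replicate 2 and -2.91 without replicate 1. The cause of the following shifts was not tested. With no filter and with DESeq2 alike, antigens called became 2 in LNCaP plastic stripped against control, 3 in LNCaP ACP against plastic in stripped serum, 1 in the same comparison of MDAPCa2a, and 2 for the androgen effect of MDAPCa2a against LNCaP, which was also 2 without the plastic control libraries. In 1 fit of all lines LNCaP had 0 for ACP against plastic in either medium, 1 for ACP stripped against control, 1 for androgen against ACP control and 0 for the interaction.

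Replicate numbers were not used to pair the samples in the main fits. Over 23 pairs of groups the correlation of deviations ran from -0.443 to 0.553, with 7 over 0.1 and 6 under -0.1. The highest was between MDAPCa2a ACP androgen and ACP stripped. These mixed values do not settle whether replicate numbers pair the samples. With a replicate block the calls became 2 for LNCaP ACP against plastic in stripped serum and 3 for MDAPCa2a against LNCaP on plastic. SLC45A3 of VCaP against LNCaP with androgen and STEAP4 of MDAPCa2a against VCaP on plastic were also lost under it (0.88 and -0.89).

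Leaving out 1 library gave 0 calls for RWPE and for LNCaP ACP against plastic in control medium, 0 to 2 for RWPE androgen, 1 to 2 for LNCaP ACP stripped against control, 0 to 2 for LNCaP ACP against plastic in stripped serum, 0 to 1 for the LNCaP interaction, 0 to 1 for VCaP ACP against plastic in control medium, and 0 to 3 for VCaP androgen against ACP control. Between lines it gave 1 for VCaP and 3 for MDAPCa2a against LNCaP on plastic, and for the androgen effect 1 to 2 in VCaP against LNCaP, 0 to 2 in MDAPCa2a against LNCaP and up to 5 in VCaP against MDAPCa2a. Over all genes, the androgen calls were 1133 in LNCaP (696 to 2028 under other settings, 201 to 1771 without 1 library), 2727 in VCaP (2630 to 4545, and 766 to 2318 without 1 library) and 0 in MDAPCa2a (0 to 9, and 0 to 3 without 1 library).

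Depth limits STEAP4 in RWPE and LNCaP, where libraries held as few as 1 read, and groups of 1 to 3 libraries limit every call.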
